A study of Mus musculus with 20 samples.

Results

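The transcripts described here are those of 10 nuclear genes whose proteins fold or degrade other proteins inside mitochondria: Hspd1, Hspe1, Hspa9, Dnaja3, Trap1, Lonp1, Clpp, Clpx, Yme1l1 and Afg3l2. They were chosen by name, as a functional group, and all 10 were found among the 46744 rows of the deposited table of mouse whole skin. Of these, 9 had a row of their own, and Dnaja3 shared its row with Vasn, a gene for a secreted and membrane protein, so that the value given for Dnaja3 belongs to both genes. The 20 samples, all total skin of C57BL/6 mice, fell into 6 groups. Conditional knockout (cKO) skin, genotype Sod2-/-, came from mice aged 100 days (3 samples) or 300 days (3 samples). Control skin, genotype Sod2+/+, came from mice aged 50 days (5 samples), 100 days (2 samples), 300 days (3 samples) or 700 days (4 samples). Sod2 encodes the superoxide dismutase of the mitochondrial matrix. The labels do not name the cells in which it was deleted or the Cre line, and they do not say whether animals were pooled. Sample titles carry the prefix S2-Skin for all cKO samples and the 100- and 300-day controls, and CO-Skin for the 50- and 700-day controls; no ratio was taken across these prefixes.

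Levels are in FPKM, the fragments assigned to a gene per kilobase of its transcripts, scaled for the size of the library, and the authors deposited 1 value for each gene in each group. No value therefore has an error or a test, and whether a difference exceeds the variation between animals cannot be told. Read depth is unknown. Comparisons are log2 ratios of (FPKM + 1). A gene was counted where this ratio had a size of at least 1, and separately at a size of at least 0.5, and the members were read against the 12183 named genes whose mean reached 1 FPKM. Sod2 stood at 17.6 FPKM in cKO and 27.7 FPKM in control skin at 100 days, and the 300-day values were 16.8 FPKM in cKO and 23.5 FPKM in control skin. In whole skin, fewer cells of a type and less RNA per cell cannot be told apart. The Y-linked transcript Ddx3y was 23.1, 21.4 and 21.5 FPKM in the 100-day cKO, the 300-day cKO and the 700-day control, and at most 0.243 FPKM in the other 3 groups, so genotype, and age in the CO-Skin pair, cannot be told apart from this sex-linked difference.

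Most mitochondrial proteins are made in the cytosol and enter the organelle unfolded. In the matrix the Hsp70 protein encoded by Hspa9, helped by the J-domain protein encoded by Dnaja3, binds them as they arrive, and the barrel-shaped chaperonin built from the Hspd1 product (Hsp60) with its lid, the Hspe1 product (Hsp10), folds many of them. Trap1 encodes the Hsp90 relative of mitochondria. Damaged or unassembled proteins are removed by ATP-driven proteases: Lonp1 and the ClpXP complex in the matrix, where Clpx encodes the unfolding ring and Clpp the peptidase, and in the inner membrane the i-AAA protease encoded by Yme1l1 and the m-AAA protease, of which Afg3l2 encodes a subunit. Several of these genes are known markers of the mitochondrial unfolded protein response, which has been described in cells whose mitochondria hold misfolded protein.

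The Hspd1 and Hspe1 genes lie head to head on mouse chromosome 1, and RefSeq (GRCm38.p6) gives Hspd1 starts at 55087932 and 55088243 on the minus strand and the Hspe1 start at 55088148 on the plus strand. The first Hspd1 start is 216 bases from that of Hspe1, and the second lies inside the Hspe1 gene. The short stretch between 55087932 and 55088148 that matches the heat shock element, the binding motif of heat shock factors, is shown because a promoter window of each gene holds it. The stretch printed is chr1:55088053-55088082 on the plus strand, and its capitals mark the matched bases. The upstream window of Clpx (chr9:65294010-65294259, plus strand) is shown beside it as that of a member with no match. The windows of Yme1l1, Trap1, Dnaja3 and Lonp1 had no match either. For these members without a match, Pearson's r with Hspd1 over the groups (described below) was -0.80 for Yme1l1 and -0.73 for Clpx. It was -0.48 for the Dnaja3 row, 0.03 for Lonp1 and 0.57 for Trap1. The part of the match in these values was not tested.

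Hspd1 and Hspe1 element: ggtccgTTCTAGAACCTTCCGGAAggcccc

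Clpx upstream window: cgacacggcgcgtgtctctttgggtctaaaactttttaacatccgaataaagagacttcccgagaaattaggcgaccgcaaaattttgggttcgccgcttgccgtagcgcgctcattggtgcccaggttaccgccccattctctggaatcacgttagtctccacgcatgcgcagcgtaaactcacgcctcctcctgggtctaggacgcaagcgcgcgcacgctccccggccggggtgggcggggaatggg

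The capitals span 18 bases, at offsets -89 to -72 from the Hspe1 start and -144 to -127 from the Hspd1 start at 55087932, counted on each gene's strand with negative numbers before the start. They hold overlapping matches in 3 inverted units, GAANNTTCNNGAA and its complement TTCNNGAANNTTC, searched on both strands. Windows of 250 bases before to 50 after a start were found in RefSeq for 8 of the 10 members, Hspd1 with 2 starts. Matches in 3 units stood in the Hspe1 window, in 1 of the 2 Hspd1 windows and in 0.603% of 32851 promoter windows of mouse genes. Matches in 2 units, GAANNTTC or TTCNNGAA, which every 3-unit match contains, stood in windows of 3 members (Hspd1, Hspe1 and Clpp) and in 15.1% of all windows. The window of the Hspd1 start at 55088243 had no match of either kind. The composite element of the stress factors CHOP and ATF4, searched as TGATGNAA on both strands, stood in no member window and in 3.97% of all. These matches describe letters only.

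Levels set the chaperones above most of the proteases. In the 100-day cKO, Hspa9, Hspd1 and Hspe1 were at 66.2, 60.0 and 56.3 FPKM, with Yme1l1 next at 42.2 FPKM. Clpp was the lowest member in every group. Hspa9 was the highest in 5 groups; in the 50-day control Hspe1 (49.1 FPKM) and Hspd1 (42.2 FPKM) stood above it (38.1 FPKM). By their mean over the 6 groups, Hspa9, Hspd1 and Hspe1 lay at percentiles 93.6, 92.8 and 92.4 of the named genes, and Clpp at 41.99. Neighbours in these orders differ by amounts for which no spread is known. The sum over the 10 genes was 334 FPKM in cKO and 381 FPKM in control skin at 100 days, 358 FPKM in cKO and 385 FPKM in control skin at 300 days, and 243 FPKM at 700 days and 252 FPKM at 50 days in the CO-Skin controls.

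**Figure D1:**
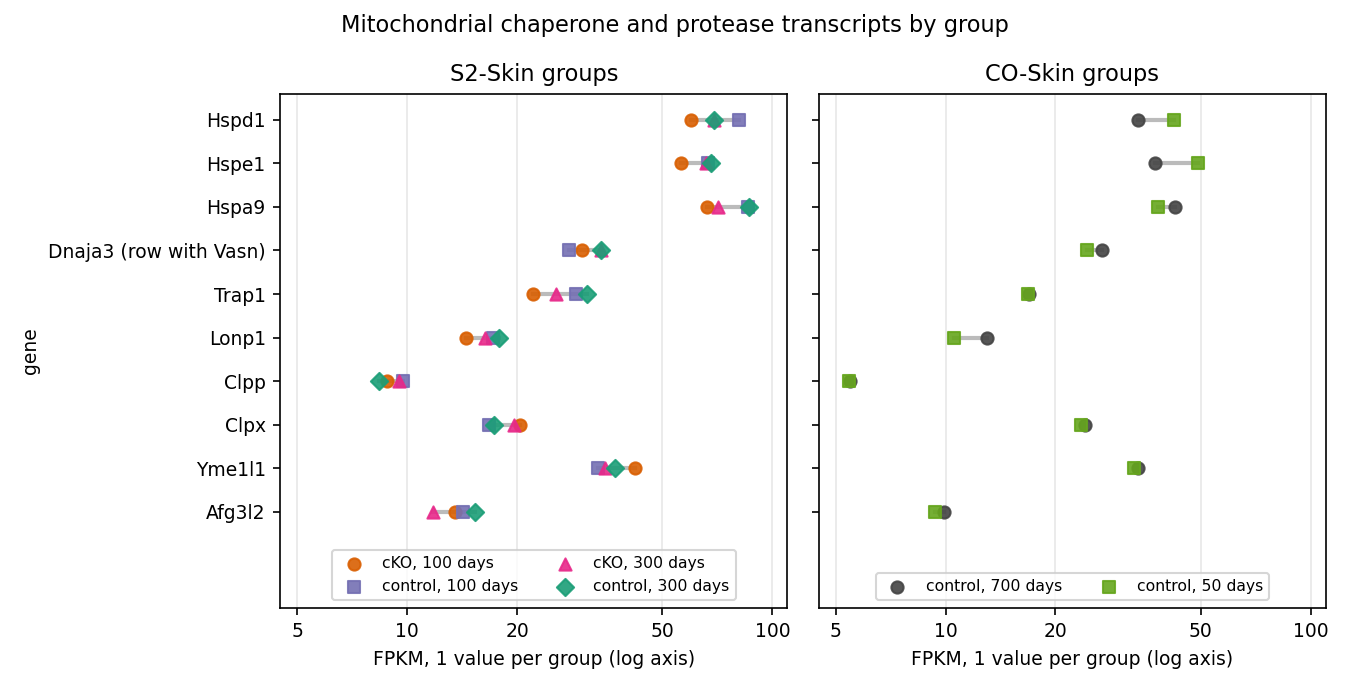
FPKM of each gene (rows) on a log axis, 1 point per group and no error bars because each group has 1 deposited value; grey lines join the lowest and highest group within a title prefix. Hspa9, Hspd1 and Hspe1 lie at the right of both panels and Clpp at the left, between 8.38 and 9.73 FPKM in the S2-Skin groups.

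The comparison of cKO with control skin at 100 days asked how these transcripts stand in skin labelled Sod2-/-. In this whole tissue Sod2 was lower but not absent, at 17.6 FPKM in cKO and 27.7 FPKM in control skin. None of the 10 members reached a size of 1, which 6.63% of all named genes did, and none reached 0.5, which 27% did. The log2 ratios ran from -0.43 to 0.33 with a median of -0.18, against 0.02 over all named genes. The chaperonin subunit Hspd1 was 60.0 FPKM in cKO and 80.9 FPKM in control skin (log2 ratio -0.43), the lowest ratio of the group, at percentile 18.2 of all genes. Its lid partner Hspe1 was 56.3 FPKM in cKO and 66.8 FPKM in control skin (-0.24). The Hsp70 gene Hspa9 was 66.2 FPKM in cKO and 85.6 FPKM in control skin (-0.36), and Trap1 was 22.2 FPKM in cKO and 29.0 FPKM in control skin (-0.37). These 4 chaperone transcripts stood below their control value, Hspe1 with the reservation on pseudogenes given below, while the row of Dnaja3 and Vasn stood above it at 30.04 FPKM in cKO and 27.7 FPKM in control skin (0.11; -0.02 after rescaling to equal totals).

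The proteases did not share one direction at 100 days. Yme1l1, the i-AAA protease, was 42.2 FPKM in cKO and 33.3 FPKM in control skin (log2 ratio 0.33). Clpx, the unfolding ring, was 20.3 FPKM in cKO and 16.7 FPKM in control skin (0.27). Both had cKO values above every other S2-Skin group. The matrix protease Lonp1 was 14.5 FPKM in cKO and 17.1 FPKM in control skin (-0.22). Clpp, the peptidase that Clpx feeds, was 8.81 FPKM in cKO and 9.73 FPKM in control skin (-0.13), and Afg3l2 was 13.5 FPKM in cKO and 14.2 FPKM in control skin (-0.06). The 5 protease genes summed to 99.4 FPKM in cKO and 91.1 FPKM in control skin, and the 5 chaperone genes to 235 FPKM in cKO and 290 FPKM in control skin. Of the 5 protease genes only Yme1l1 and Clpx stood above control. The total over all rows was also higher, at 652702 FPKM in cKO and 595975 FPKM in control skin, and these sums were not rescaled for it.

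Reads of near-identical copies bear on Hspe1. The table holds 5 named Hspe1 pseudogene rows, up to 17.6 FPKM (Hspe1-ps5) in the 100-day cKO and 11.1 FPKM in the 100-day control, and how the authors' counting divided shared reads is not given. Adding these rows to the gene gave 94.7 FPKM in cKO and 91.7 FPKM in control skin at 100 days, a log2 ratio of 0.04 in place of -0.24, so the direction of Hspe1 at that age is uncertain. The 3 Hspd1 pseudogene rows were at most 3.48 FPKM, and with them Hspd1 stood at -0.45. The Hspd1 and Hspe1 spans also overlap on opposite strands; the libraries were directional, per the labels, but whether counting used strand is not given. The same holds for Trap1, which overlaps Dnase1, and Dnaja3, which overlaps Coro7, each on the opposite strand.

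**Figure D2:**
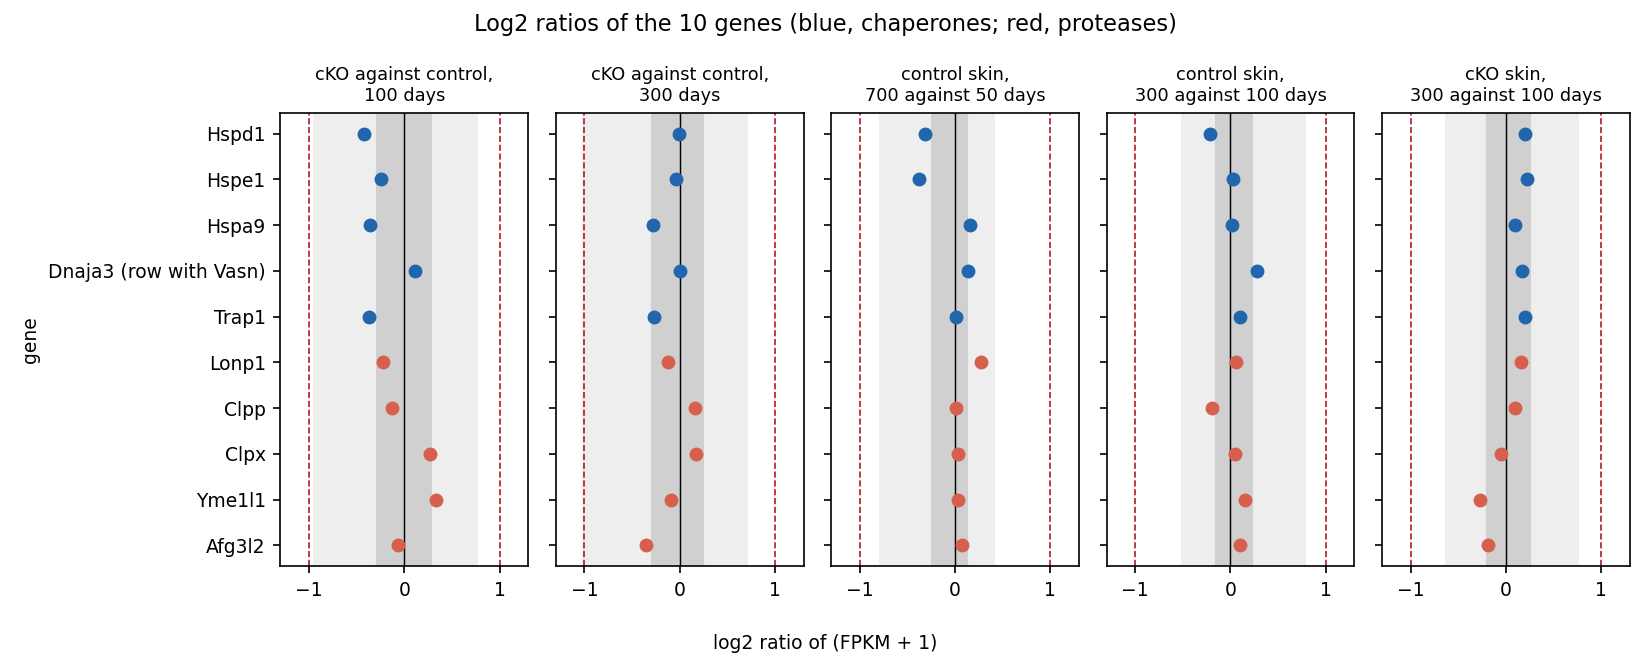
Log2 ratio of (FPKM + 1) of each gene (rows) in 5 comparisons (panels), the first-named group over the second; blue points are chaperones and red points proteases. The dark and light grey bands hold the central 50% and 90% of 12183 named genes, the dashed lines mark the size of 1, and every point lies between -0.43 and 0.33.

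At 300 days the same comparison again placed no member past a size of 1 or of 0.5, against 7.08% and 25.4% of all named genes. The median of the 10 was -0.06, with -0.01 over all genes, and 9 of 10 lay between the quartiles of all genes. Hspd1 was 69.2 FPKM in cKO and 69.3 FPKM in control skin, and Hspe1 was 65.98 FPKM in cKO and 67.9 FPKM in control skin, log2 ratios of 0.00 and -0.04. The chaperonin pair thus had nearly the same value in the groups compared. Hspa9 was 71.1 FPKM in cKO and 86.4 FPKM in control skin (-0.28), and Trap1 was 25.6 FPKM in cKO and 31.1 FPKM in control skin (-0.27). The Hsp70 and Hsp90 genes again had values below control. Afg3l2, the m-AAA subunit, had the lowest ratio at this age, with 11.8 FPKM in cKO and 15.3 FPKM in control skin (-0.36). Lonp1 was 16.3 FPKM in cKO and 17.9 FPKM in control skin (-0.12). Of the matrix protease genes only Lonp1 stood below control at this age. Clpx was 19.6 FPKM in cKO and 17.3 FPKM in control skin (0.17), and Clpp was 9.52 FPKM in cKO and 8.38 FPKM in control skin (0.17). Yme1l1 was 34.8 FPKM in cKO and 37.1 FPKM in control skin (-0.09), and the row of Dnaja3 and Vasn was 33.9 FPKM in both.

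Set side by side, 5 genes had cKO values below control at both ages under every scaling tried: Hspa9, Trap1, Lonp1, Afg3l2 and Hspe1, of which Hspe1 lost this at 100 days once its pseudogene rows were added. Clpx had cKO values above control at both ages. The difference between the genotype ratios, 300 minus 100 days, was 0.42 for Hspd1 and -0.42 for Yme1l1, the ends of the range. It was 0.29 for Clpp and -0.29 for Afg3l2. No member reached 1 in this difference, which 8.78% of all named genes did, or 0.5, which 30.2% did. After rescaling to equal totals 1 member did, Hspd1 at 0.54, and 33.2% of all genes reached 0.5 in either direction at that scaling; as deposited, 14.3% were higher by 0.5. Hspd1 was 80.9 FPKM in the 100-day control, above the 60.0 to 69.3 FPKM of the other S2-Skin groups, and that group had 2 samples.

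Across age within the S2-Skin groups, none of the 10 reached 0.5 in control skin, where 15.1% of all genes did (9.77% higher and 5.33% lower), or in cKO skin, where 19.5% did (11.4% higher and 8.1% lower). None therefore reached 1, which 4.6% of all genes did in control skin and 3.98% in cKO skin. In control skin the median ratio of 300 over 100 days was 0.05, with 8 of 10 genes above 0, but it was -0.14 with 1 of 10 above 0 after rescaling to equal totals, so no direction is given. Hspd1 was 69.3 FPKM at 300 days and 80.9 FPKM at 100 days (-0.22). In cKO skin the median was 0.13. Hspe1 was 65.98 FPKM at 300 days and 56.3 FPKM at 100 days (0.23), Hspd1 69.2 FPKM at 300 days and 60.0 FPKM at 100 days (0.20), and Trap1 25.6 FPKM at 300 days and 22.2 FPKM at 100 days (0.20). Yme1l1 was 34.8 FPKM at 300 days and 42.2 FPKM at 100 days (-0.27). These comparisons share their groups with the genotype comparisons.

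The comparison of 700-day with 50-day control skin asked how these transcripts stand in old skin. No member reached a size of 1 (4.01% of all named genes did) or of 0.5 (14.1% did, 3.05% higher and 11% lower). The median was 0.03 with -0.03 over all genes. Of the members 8 of 10 lay above 0, as did 5447 of the 12183 named genes. Trap1, Clpp, Clpx and Yme1l1 were above it by only 0.01 to 0.03, so no shared direction is given. The chaperonin pair lay below 0. Hspd1 was 33.6 FPKM at 700 days and 42.2 FPKM at 50 days (log2 ratio -0.32), and Hspe1 was 37.5 FPKM at 700 days and 49.1 FPKM at 50 days (-0.38), or -0.39 with its pseudogene rows. Both signs held under every setting tried.

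The other chaperones and the proteases lay at or above their 50-day value in old skin. Lonp1 was 13.0 FPKM at 700 days and 10.6 FPKM at 50 days (0.27), at percentile 89.4 of all genes. Hspa9 was 42.6 FPKM at 700 days and 38.1 FPKM at 50 days (0.16), and the row of Dnaja3 and Vasn was 26.8 FPKM at 700 days and 24.3 FPKM at 50 days (0.13). Afg3l2 was 9.88 FPKM at 700 days and 9.36 FPKM at 50 days (0.07). Trap1, Clpp, Clpx and Yme1l1 had ratios between 0.01 and 0.03; Clpx, for example, was 24.1 FPKM at 700 days and 23.6 FPKM at 50 days.

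Ratios of partner genes within a group are free of that group's scaling. Hspd1 over Hspe1 lay between 0.858 and 1.21 in all 6 groups, at 1.07 in cKO and 1.21 in control skin at 100 days, 1.05 in cKO and 1.02 in control skin at 300 days. In the CO-Skin controls it was 0.898 at 700 days and 0.858 at 50 days. On the genes' own rows the 2 chaperonin transcripts thus had near equal levels per length. With the pseudogene rows added to both genes the ratio was 0.652 in cKO and 0.922 in control skin at 100 days, 0.683 in cKO and 0.662 in control skin at 300 days, 0.458 at 700 days and 0.436 at 50 days, so the near equality did not hold with those rows. Clpx over Clpp was 2.31 in cKO and 1.72 in control skin at 100 days and 2.06 in cKO and 2.07 in control skin at 300 days. It was 4.404 at 700 days and 4.33 at 50 days in the CO-Skin controls, above the value in each S2-Skin group. That gap cannot be told apart from other differences between the title prefixes. Yme1l1 over Afg3l2 was 3.12 in cKO and 2.35 in control skin at 100 days, 2.96 in cKO and 2.42 in control skin at 300 days, with 3.398 at 700 days and 3.50 at 50 days. The inner membrane pair therefore had the higher ratio in cKO skin at both ages. Hspa9 over the Dnaja3 row was 2.21 in cKO and 3.08 in control skin at 100 days and 2.10 in cKO and 2.55 in control skin at 300 days, with the contribution of Vasn unknown. Lonp1 over Clpp ranged from 1.65 to 2.38, and Trap1 over Hspd1 from 0.358 to 0.503.

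**Figure D3:**
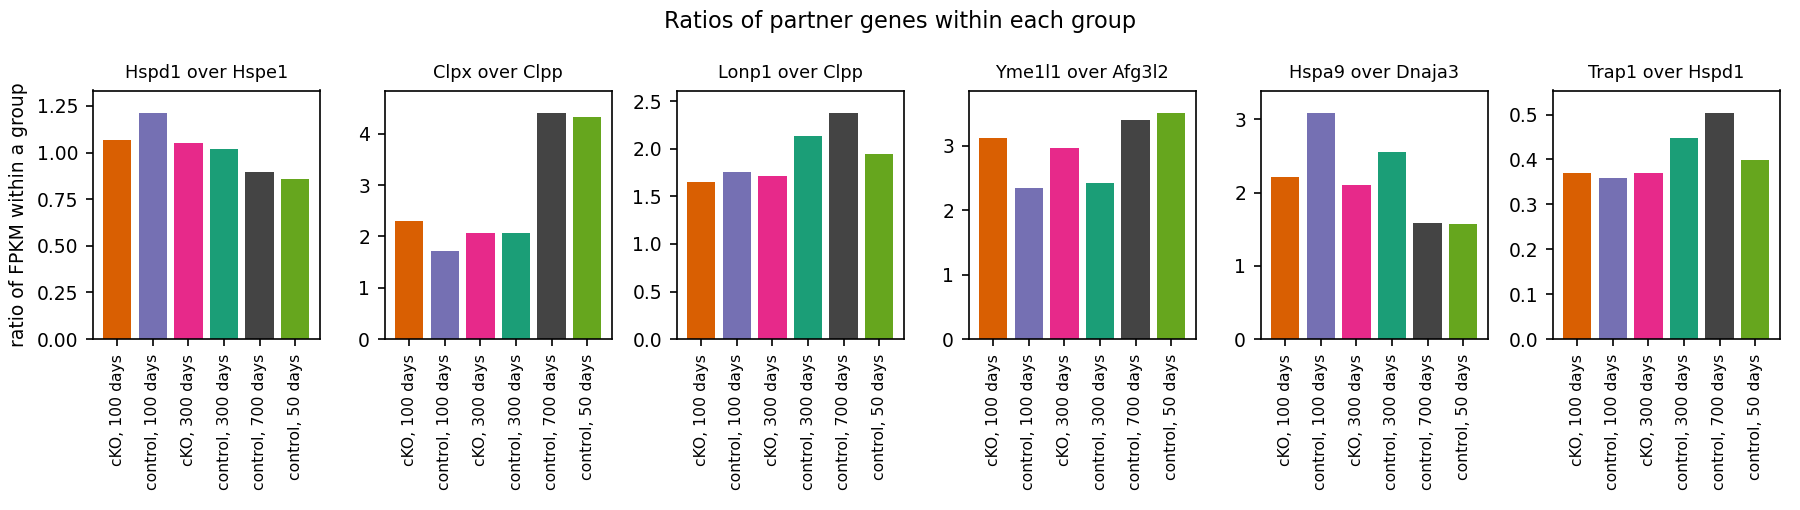
Ratio of the FPKM of partner genes within each of the 6 groups (bars, from 0, with no error bars because each group has 1 value; the vertical scale differs between panels). Yme1l1 over Afg3l2 is 3.12 and 2.96 in the cKO groups and 2.35 and 2.42 in their controls of the same age.

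Members were also compared by their pattern over the 6 groups, as log2(FPKM + 1) centred within each title prefix, which leaves few free values, so the correlations below only describe these groups. Over the 45 pairs of members Pearson's r ranged from -0.90 to 0.92, with 23 pairs below 0 and 9 above 0.5. Hspd1 and Hspe1 stood at 0.86 on the genes' own rows, and Hspa9 and Trap1 at 0.92. The value for the chaperonin pair was not computed with the pseudogene rows, which turned the sign of Hspe1 at 100 days. Hspa9 and Lonp1 stood at 0.86. Clpx ran opposite to Hspa9 and Trap1 (-0.90 each) and to Hspd1 (-0.73), and Yme1l1 opposite to Hspd1 (-0.80). Clpx and Clpp, partners in one protease, stood at -0.08. Among 8668 other named genes whose mean reached 5 FPKM, those most like Hspd1 were Smarcd3, Aspa, Trp53i13, Esr1 and Anpep (r from 0.987 to 0.993), and those most like the mean of the members were Naaa, Cmc2, Cmtm3, Acadvl and Tesk1 (0.994 to 0.997). The enzyme of fatty acid oxidation encoded by Acadvl was 38.6 FPKM in cKO and 65.2 FPKM in control skin at 100 days.

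Other mitochondrial genes gave a setting for these values. In a list of respiratory chain, TCA cycle and other abundant mitochondrial genes with 16 measured members, all 16 lay below the control value at 100 days under every scaling, with a median of -0.46, and 6 of them reached 0.5 downward (15% of all genes did). Cox5a of complex IV was 47.3 FPKM in cKO and 72.7 FPKM in control skin, and Sdhb of complex II was 72.0 FPKM in cKO and 108 FPKM in control skin. All 10 chaperone and protease ratios lay above that median, as did 83.3% of all genes. At 300 days the median of the list was -0.24, with 3 of 16 at 0.5 downward (14.9% of all genes were), and 7 of 10 members lay above it, as did 71.2% of all genes. The list's median was -0.17 at 700 against 50 days, and 8 of 10 members lay above it, as did 67.5% of all genes. Beside these, the skeletal muscle markers described below had medians of -0.72 in the 100-day and 0.18 in the 300-day genotype comparison and -5.22 at 700 against 50 days, and their part in the values was not tested. Sdhb at 300 days was 63.9 FPKM in cKO and 107 FPKM in control skin. The sum of the 10 members per 100 FPKM of this list was 15.8 in cKO and 13.4 in control skin at 100 days, 15.6 in cKO and 14.0 in control skin at 300 days, with 20.9 at 700 days and 18.8 at 50 days. For the proteases alone it was 4.71 in cKO and 3.21 in control skin at 100 days, and 4.01 in cKO and 3.51 in control skin at 300 days. For the chaperones it was 11.1 in cKO and 10.2 in control skin at 100 days, and 11.6 in cKO and 10.5 in control skin at 300 days. The list itself, by which these sums are divided, was 2109 FPKM in cKO and 2841 FPKM in control skin at 100 days. At 300 days it was 2292 FPKM in cKO and 2737 FPKM in control skin. Before this division the 300-day protease sum was 92.0 FPKM in cKO and 96.0 FPKM in control skin. The 300-day chaperone sum was 266 FPKM in cKO and 289 FPKM in control skin. Both sums thus stood below control at that age.

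Other import, cofactor and protease genes of mitochondria spread more widely than the 10 members, with ratios from -1.04 to 0.57 at 100 days. The import and cofactor list had medians of -0.09 at 100 days, -0.13 at 300 days and 0.11 at 700 against 50 days, and the list of other proteases had -0.32, -0.04 and -0.11 in the same comparisons. Of 15 import motor, translocase and cofactor genes measured, 1 was counted as lower at 100 days. This was Bcs1l, an assembly factor of complex III, at 4.25 FPKM in cKO and 9.82 FPKM in control skin (log2 ratio -1.04). A size of 1 was reached by 6.63% of all genes in either direction, and 527 of the 12183 were lower. Dnajc15 and Pam16 of the import motor came next. Dnajc15 was 28.4 FPKM in cKO and 47.1 FPKM in control skin (-0.71). Pam16 was 9.33 FPKM in cKO and 15.1 FPKM in control skin (-0.64). The Bcs1l ratio at 300 days was -0.54, with 5.72 FPKM in cKO and 8.79 FPKM in control skin. Clpb, a mitochondrial disaggregase related to the Hsp100 family, was 32.02 FPKM in cKO and 21.8 FPKM in control skin at 300 days (0.53) and 15.1 FPKM in the 100-day cKO. Of 15 other protease and scaffold genes none reached 1 at either age. Parl, the rhomboid protease of the inner membrane, was 54.5 FPKM in cKO and 36.3 FPKM in control skin at 100 days (0.57). Immp2l, a subunit of the inner membrane peptidase, was 8.17 FPKM in cKO and 13.4 FPKM in control skin at 100 days (-0.65) and 5.20 FPKM in cKO and 9.82 FPKM in control skin at 300 days (-0.80). Immp2l thus lay below control at both ages. Htra2, a protease of the intermembrane space, was 12.1 FPKM in cKO and 18.7 FPKM in control skin at 300 days (-0.59), and Lactb was 8.04 FPKM in cKO and 4.86 FPKM in control skin (0.63).

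The regulators linked to mitochondrial stress were measured in 8 of 10 cases, and none reached 1 in either genotype comparison. Their median was 0.11 at 100 days, 0.17 at 300 days and -0.01 at 700 against 50 days. Rescaling to equal totals made the 100-day median -0.01, with 4 genes above 0 and 4 below. Atf5, a transcription factor of the mitochondrial unfolded protein response, was 10.1 FPKM in cKO and 13.4 FPKM in control skin at 100 days (-0.38). Ddit3, which encodes CHOP, was 15.4 FPKM in cKO and 13.0 FPKM in control skin at 100 days (0.22). Tfam, whose product packages mitochondrial DNA and is needed to transcribe it, was 15.4 FPKM in cKO and 10.3 FPKM in control skin at 100 days (0.53), but 14.4 FPKM in cKO and 17.2 FPKM in control skin at 300 days. The list had no common direction at 100 days, with 5 genes above 0 and 3 below. At 300 days Ppargc1a, a coactivator of mitochondrial biogenesis, was 7.08 FPKM in cKO and 4.57 FPKM in control skin (0.54), and Hsf1, a heat shock factor, was 9.19 FPKM in cKO and 6.92 FPKM in control skin (0.36). Fgf21 and Gdf15, secreted products of mitochondrial stress, were at most 0.234 and 0.0986 FPKM in any group.

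The cytosolic heat shock genes had higher ratios than the mitochondrial ones at 300 days. Their median was 0.41 over 12 genes, with 10 above 0, against -0.06 over the 10 mitochondrial members; 3 of 12 reached 0.5 upward (10.5% of all genes did) and none reached 1. Hsph1, an Hsp110 co-chaperone, was 49.8 FPKM in cKO and 25.5 FPKM in control skin (0.94), and Hspa8, the constitutive cytosolic Hsp70, was 1185 FPKM in cKO and 725 FPKM in control skin (0.71), in a row shared with small nucleolar RNAs. The inducible Hspa1a was 6.34 FPKM in cKO and 3.27 FPKM in control skin (0.78). Hspd1 and Hspe1, which share the match to the heat shock element shown above, had 0.00 and -0.04 in that comparison. The part of this match in the values was not tested. Keratinocyte markers also stood higher at 300 days, with a median of 0.56 and 8 of 8 above 0, and their part in these values was not tested. At 100 days the cytosolic list had a median of 0.18, or 0.06 after rescaling to equal totals, and Hspb1, a small heat shock protein, was 92.5 FPKM in cKO and 48.9 FPKM in control skin. As deposited, the 12 chaperones of the endoplasmic reticulum had medians of -0.01 at both ages, and none of them reached 0.5. After rescaling to equal totals their median at 100 days was -0.13, with 10 of 12 below 0. In old against young control skin these lists had medians of 0.09 and 0.01.

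**Figure D4:**
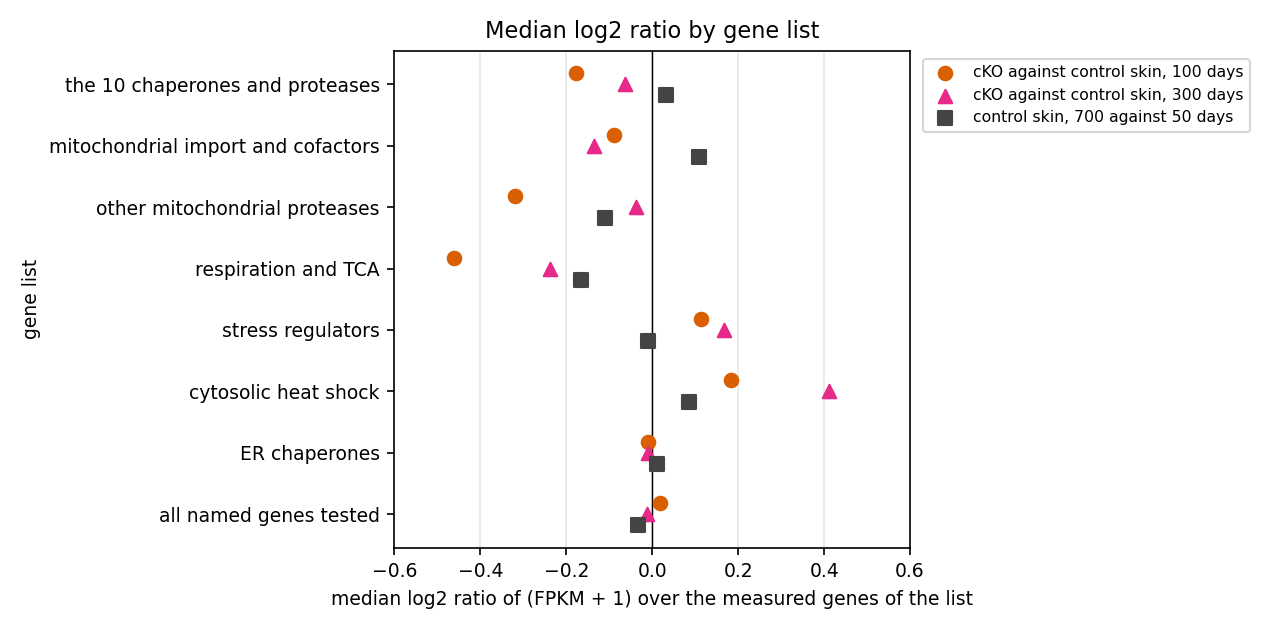
Median log2 ratio of (FPKM + 1) over the measured genes of each list (rows), with cKO over control at 100 days (circles) and 300 days (triangles) and 700 over 50 days in control skin (squares). The respiration and TCA list lies farthest left at 100 days (-0.46) and the cytosolic heat shock list farthest right at 300 days (0.41).

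Markers of tissue makeup differed in several of these comparisons. The 9 measured skeletal muscle markers, a tissue rich in mitochondria, summed to 12458 FPKM in cKO and 19069 FPKM in control skin at 100 days, to 18078 FPKM in cKO and 16215 FPKM in control skin at 300 days, and to 89.9 FPKM at 700 days and 3651 FPKM at 50 days. All 9 were counted as lower at 700 days and 3 of 9 in the 100-day cKO. Of all named genes, 6.63% were counted in either direction in the 100-day and 7.08% in the 300-day genotype comparison. The share was 4.01% at 700 against 50 days. At 300 against 100 days it was 4.6% in control and 3.98% in cKO skin. By direction, 527 genes were lower and 281 higher in the 100-day genotype comparison. In the 300-day one 631 were lower and 231 higher. At 700 against 50 days 399 were lower and 90 higher. For 300 against 100 days, 129 were lower and 431 higher in control skin, and 189 lower and 296 higher in cKO skin. The 9 adipocyte markers summed to 1647 FPKM in cKO and 4859 FPKM in control skin at 100 days, to 1715 FPKM in cKO and 3526 FPKM in control skin at 300 days, and to 213 FPKM at 700 days and 641 FPKM at 50 days. They were counted as lower in 9 of 9 cases in the 100-day cKO, 6 of 9 in the 300-day cKO and 8 of 9 at 700 days. Hair follicle keratin and trichohyalin genes summed to 5200 FPKM in cKO and 1562 FPKM in control skin at 100 days, with 6 of 8 counted as higher. Lymphocyte genes summed to 9.84 FPKM in cKO and 328 FPKM in control skin at 300 days, and to between 8.56 and 23.3 FPKM in the other groups, so that the 300-day control stood apart. All 8 were counted as lower in the 300-day cKO against that control, and all 8 as higher in control skin at 300 against 100 days; Cd79b was listed at 0 in the 50-day control. Genes of simple and secretory epithelium summed to 5.97 FPKM in cKO and 393 FPKM in control skin at 100 days, to 4.35 FPKM in cKO and 108 FPKM in control skin at 300 days, and to 2.25 FPKM at 700 days and 41.7 FPKM at 50 days. Fibroblast genes summed to 1502 FPKM in cKO and 2578 FPKM in control skin at 100 days, with 2 of 6 counted as lower, to 4057 FPKM in cKO and 2401 FPKM in control skin at 300 days, with 2 of 6 counted as higher, and to 800 FPKM at 700 days and 1361 FPKM at 50 days. In cKO skin 4 of 6 were counted as higher at 300 against 100 days. The 8 keratinocyte markers summed to 2869 FPKM in cKO and 2237 FPKM in control skin at 100 days, with none counted, and to 3650 FPKM in cKO and 2339 FPKM in control skin at 300 days, with 2 counted as higher. They summed to 10285 FPKM at 700 days and 8355 FPKM at 50 days, with 2 counted as higher, and none was at 0 in any group. The part of tissue makeup in the values of the 10 genes was not tested.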

How the data were processed

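RNA of total skin was sequenced in 20 samples of 6 groups, taken from the source names in the labels. Per the labels' protocols, ribosomal RNA was removed with one kit or another, not told apart by sample, before directional library preparation. The authors deposited FPKM values, 1 column per group; per the submitters' processing notes HISAT2, Cufflinks and Cuffdiff were used with mm10. Versions, annotation, strand setting, handling of reads with several matches and how samples were combined are not given in the sources used here. Depth is therefore unknown, and no test, error or interval was computed.

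From the table, the row holding each symbol was taken (the highest mean where several did), log2 ratios of (FPKM + 1) were computed within a title prefix, and the background was every row with a single symbol that does not name a pseudogene, clone, predicted or unnamed locus or small RNA (19420, of which 12183 had a mean of at least 1 FPKM). All 10 members are named whatever their values. Beside them the rule allowed, per comparison and list, up to 3 genes of largest size, and the 5 genes of most like pattern; Fgf21, Gdf15 and the sex-linked and lymphocyte genes named were chosen after their values were seen. Members and lists were chosen with earlier results of these data known. Spg7, Afg3l1, Cox4i1 and Acta1, on these lists, were not analysed here. Positions and overlaps came from GENCODE M21 and RefSeq tables of GRCm38 (mm10). The counting was tested on simulated data. Alternatives were other pseudocounts, filters, scalings and row choices. Python 3.11.15, pandas 2.3.3, numpy 2.4.6 and matplotlib 3.10.9 were used.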

Additional observations from a re-analysis of the deposited data

How the results depend on the processing

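The counts of members and their medians in the 6 comparisons stayed within 1.5 times or 0.1 (log2) of the reported value with pseudocounts of 0.1 and 0.5, with no filter or a floor of 5 FPKM on the mean, with groups brought to a common median and with rows of a gene summed, and, chosen after seeing the data, with protein-coding genes alone, without the Dnaja3 row and with pseudogene rows added. Rescaling to equal totals (TPM) moved 6 of these values. Of the ratios of single members and the shares over all genes, 37 moved at this scaling and 35 did not. The median of the members became -0.31 for cKO against control skin at 100 days. With it 2 members (Hspd1 and Trap1) were lower at a size of at least 0.5, where none was before. At this scaling 30.2% of all genes reached that size in either direction. The share lower alone was not computed at this scaling, and as deposited it was 15%. The members' median became -0.14 for control skin at 300 against 100 days and 0.14 for 700 against 50 days. For the genotype difference it became 0.21, and 1 member was then higher at 0.5. This scaling shifts all genes: the median over all named genes was -0.10 for cKO at 100 days and -0.15 for control skin at 300 against 100 days. Adding pseudogene rows turned the sign of Hspe1 at 100 days (0.04) and in the genotype difference (-0.08). No paired analysis was possible because the table has 1 value per group, and for the same reason leaving out replicates was not run. With no counts, depth sets no stated limit, and differences of this size cannot be told from variation between animals.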
